A study of Mus musculus with 12 samples.

Results

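The genes described here encode proteins of synaptic vesicle release and were measured in the adult mouse nucleus accumbens after maternal immune activation. They are the synapsins Syn1 and Syn2, the vesicle membrane protein gene Syp, the SNARE genes Snap25, Stx1a, Vamp1 and Vamp2, and the calcium sensor gene Syt1. The 8 genes were chosen by name, and each had exactly 1 row with a single gene symbol among the 21218 such rows, of 35556 in all, on the Affymetrix Mouse Gene 1.1 ST arrays. The accumbens is the ventral part of the striatum and was taken with core and shell together. All animals were C57BL/6N offspring aged 12 weeks that had gone through behavioural testing. In the poly(I:C) group the dams had received 5 mg/kg of the double-stranded RNA analogue poly(I:C) intravenously on gestation day 17, and in the control group they had received saline by the same route. There were 6 arrays per group, titled as biological replicates 1 to 6. The comparison asks how adult gene expression in this region differs with the prenatal exposure.

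Transmitter is released when a vesicle that has been held in reserve by synapsins docks at the active zone and fuses with the plasma membrane. Fusion is driven by SNARE proteins, in which synaptobrevin (Vamp1 or Vamp2) on the vesicle zips together with syntaxin 1 (Stx1a) and Snap25 on the plasma membrane, and synaptotagmin 1 (Syt1) couples that step to calcium entry. In the striatum these transcripts come from the cell bodies of medium spiny neurons and interneurons, while the terminals of cortical and thalamic neurons bring the proteins but little of the messenger RNA. Slc17a7 encodes the glutamate transporter that fills vesicles in cortical neurons, and its level was followed beside the 8 genes as a cortical marker.

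The promoters of 2 of the genes are shown because they mark the ends of the results: Syn1 had the largest group difference of the 8, and Stx1a had the steepest relation to Slc17a7. Both windows hold the 250 bases before the RefSeq start of the gene in build GRCm38.p6, written 5′ to 3′ on the gene's strand. The Syn1 window lies at chrX:20920919-20921168 on the minus strand and the Stx1a window at chr5:135023232-135023481 on the plus strand. Capitals mark every match, on either strand, to 4 motifs: the cyclic AMP response element TGACGTCA, the left part TTCAGCACC of the RE1 element bound by the neuronal gene repressor REST, the GC box GGGCGG and the TATA box TATAAA.
Syn1: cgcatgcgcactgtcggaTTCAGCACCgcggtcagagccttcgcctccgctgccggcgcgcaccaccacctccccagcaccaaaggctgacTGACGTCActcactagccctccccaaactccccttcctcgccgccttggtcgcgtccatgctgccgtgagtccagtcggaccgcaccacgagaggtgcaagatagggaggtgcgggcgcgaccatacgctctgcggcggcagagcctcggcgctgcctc
Stx1a: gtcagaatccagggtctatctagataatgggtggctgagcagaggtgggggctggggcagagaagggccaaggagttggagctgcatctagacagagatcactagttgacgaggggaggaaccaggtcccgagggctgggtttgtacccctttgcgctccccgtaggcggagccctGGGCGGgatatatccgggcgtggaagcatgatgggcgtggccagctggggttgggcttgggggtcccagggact

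The Syn1 window held the left RE1 part at position -232 and the cyclic AMP response element at -159, and no GC box. The Stx1a window held 1 GC box at -74 and none of the other motifs. Among all 32851 promoter windows of this length, 0.301% held the left RE1 part, 1.55% the cyclic AMP response element, 32.7% the GC box and 12.4% the TATA box. Of the 8 genes 6 had a window, and Snap25 and Vamp2 had none. These 6 genes had 8 windows, with more than 1 for Syn2 and for Syt1, and the shares above count windows. For both Syn2 and Syt1, 1 window held no GC box. Among the 6 genes the GC box was found in at least 1 window for Stx1a, Syn2, Syp, Syt1 and Vamp1, and the TATA box for 0. Syn1 was thus the 1 gene of the 6 without the GC box and the 1 with the other elements found. These matches describe the letters only, and no binding was measured here.

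The arrays stood close together, with pairwise correlations from 0.991 to 0.997 over all 35556 rows and medians from 4.78 to 4.85 on the log2 scale. Marker genes of medium spiny neurons, the defining cells of the accumbens, had a list mean between 9.25 and 9.81 in control arrays and between 9.47 and 9.86 in poly(I:C) arrays. Slc17a7 ran from 5.23 to 9.41 in controls and from 7.68 to 9.50 in the poly(I:C) group, and the choroid plexus transcript Ttr from 6.05 to 10.88 and from 4.82 to 6.80. Controls 2, 4 and 6 combined the lowest Slc17a7 with the highest Ttr: control 2 with 6.59 and 8.68, control 4 with 6.87 and 10.48, and control 6 with 5.23 and 10.88. These levels are given beside the results below where they moved with them. In tissue of this kind, fewer cells of a type and less RNA per cell cannot be told apart.

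None of the 8 genes passed the limma test for a difference between poly(I:C) and control offspring after Benjamini-Hochberg adjustment over all 21218 probes, where 0.0613% of probes passed, 0.0283% higher and 0.033% lower. The poly(I:C) mean exceeded the control mean for 7 of the 8, with Vamp1 the exception. At an unadjusted p under 0.05, 3 of 8 were higher (Syn1, Syn2 and Syp) and 0 lower, beside 7.83% of all probes higher and 6.57% lower. The median difference over the 8 genes was 0.11 on the log2 scale, against 0.0016 over all probes, of which 50.9% were above 0. The groups overlapped for all 8, whereas 1.13% of probes had groups that did not overlap. Without control 4 and control 6, the arrays with the highest Ttr, the median difference was 0.049, with Syn1 at 0.16 and Syn2 at 0.088. The unadjusted count was then 1 of 8 higher, beside 920 of the 21218 probes. With single arrays left out the count lay between 2 and 6 of 8, the highest without control 1, where 1615 of all probes were higher. Over all probes the number higher lay between 1196 (without poly(I:C) 4) and 2114 (without poly(I:C) 6).

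Synapsin 1, the phosphoprotein that tethers vesicles to the cytoskeleton, had the largest difference of the 8. In control arrays 1 to 6 Syn1 stood at 9.52, 9.42, 9.65, 9.11, 9.50 and 9.42 on the log2 scale, and in poly(I:C) arrays 1 to 6 at 9.68, 9.67, 9.75, 9.85, 9.59 and 9.54. Of the poly(I:C) values 4 lay above the highest control, control 3, and control 4 was the lowest array. The group means were 9.44 ± 0.18 and 9.68 ± 0.11 (SD, n = 6 arrays per group). The difference was 0.24 (95% interval 0.08 to 0.41, SE 0.078, limma unadjusted p = 0.0077, adjusted p = 0.192). An exact permutation test over the 924 splits of the 12 arrays, for Syn1 alone and two-sided, gave p = 0.0108. With each array left out in turn the difference ran from 0.18 to 0.29 and kept an unadjusted limma p under 0.05 in 12 of 12, while the adjusted threshold was passed in 0.

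Syn2, the second synapsin of most brain synapses, followed Syn1 closely. Its control values were 9.35, 9.26, 9.38, 9.06, 9.25 and 9.20 and its poly(I:C) values 9.43, 9.48, 9.34, 9.50, 9.32 and 9.32. Every poly(I:C) array lay above the control mean and 3 lay above the highest control, with control 4 again the lowest. The means were 9.25 ± 0.12 and 9.40 ± 0.08, a difference of 0.15 (95% interval 0.03 to 0.27, limma unadjusted p = 0.0174, adjusted p = 0.249).

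Synaptophysin, the most abundant membrane protein of the vesicle, is encoded by Syp. Control arrays gave 9.77, 9.52, 9.64, 9.48, 9.42 and 9.54 and poly(I:C) arrays 9.73, 9.81, 9.81, 9.86, 9.71 and 9.48. Poly(I:C) 6 was low, at the level of control 4, and control 1 was high, between the poly(I:C) values. The difference was 0.17 (95% interval 0.03 to 0.32, limma unadjusted p = 0.0246, adjusted p = 0.279). With single arrays left out it ran from 0.14 to 0.22 and had an unadjusted p under 0.05 in 7 of 12.

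The plasma membrane SNARE genes differed less. Snap25 read 11.38, 11.28, 11.39, 11.08, 11.33 and 11.26 in controls and 11.36, 11.32, 11.35, 11.40, 11.30 and 11.36 in the poly(I:C) group. Apart from control 4, which was the lowest, the groups covered nearly the same range, and the difference was 0.06 (95% interval -0.04 to 0.17, limma adjusted p = 0.588). Without control 4 it was 0.021. Each gene had 1 value per array, so splice forms such as those of Snap25 were not told apart. Stx1a, which encodes syntaxin 1A, read 7.28, 6.32, 6.70, 6.41, 6.31 and 6.29 in controls and 6.69, 6.83, 6.92, 6.88, 6.37 and 6.40 in the poly(I:C) group. Control 1 stood above every other array, 4 controls lay near 6.3 to 6.4, and the poly(I:C) arrays split between 4 higher and 2 lower values. The difference was 0.13 (95% interval -0.22 to 0.47, limma adjusted p = 0.760). It was 0.27 without control 1, between 0.076 and 0.081 without any 1 of controls 2, 5 and 6 or poly(I:C) 3, and 0.028 without controls 4 and 6.

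The synaptobrevins are the SNAREs of the vesicle itself. Vamp2, the main synaptobrevin of forebrain neurons, gave 10.53, 10.41, 10.59, 10.45, 10.41 and 10.30 in controls and 10.54, 10.61, 10.61, 10.55, 10.55 and 10.43 in the poly(I:C) group. In all, 5 of 6 poly(I:C) arrays exceeded the control mean, and the difference was 0.10 (95% interval -0.0039 to 0.21, limma unadjusted p = 0.0579, adjusted p = 0.365). Without controls 4 and 6 it was 0.064. Vamp1, the form used more in brainstem and spinal cord, gave 8.27, 8.14, 7.87, 7.63, 8.10 and 7.95 in controls and 8.02, 8.21, 7.98, 7.97, 8.32 and 7.40 in the poly(I:C) group. Its groups covered nearly the same range, with poly(I:C) 6 the lowest array and poly(I:C) 5 the highest. The difference was -0.01 (95% interval -0.31 to 0.28, limma adjusted p = 0.983), and leaving out single arrays moved it between -0.084 (control 4) and 0.10 (poly(I:C) 6).

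Syt1, the calcium sensor for fast release, gave 10.82, 10.65, 10.83, 10.53, 10.68 and 10.63 in controls and 10.84, 10.81, 10.79, 10.82, 10.73 and 10.69 in the poly(I:C) group. Controls 1 and 3 lay among the poly(I:C) arrays and the other 4 controls below all of them. The difference was 0.09 (95% interval -0.02 to 0.20, limma unadjusted p = 0.106, adjusted p = 0.452). It was 0.058 without control 4 and 0.034 without controls 4 and 6.

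**Figure D1:**
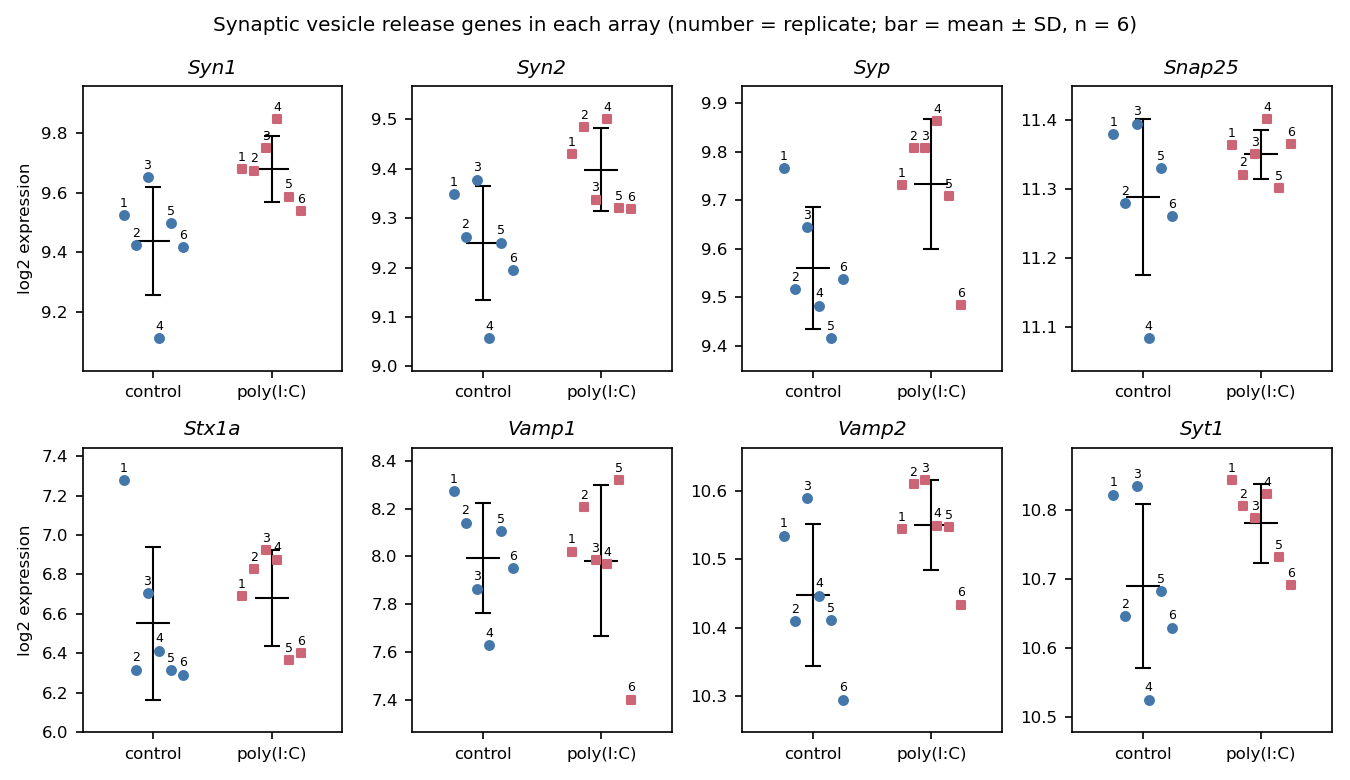
Log2 expression of each of the 8 genes (vertical axes, each with its own range) in the 6 control arrays (blue circles) and 6 poly(I:C) arrays (red squares), with replicate numbers beside the points and bars for the mean ± SD. The groups overlap in all 8 panels, and control 4 is the lowest control for 5 of the 8 genes and poly(I:C) 6 the lowest poly(I:C) array for 6.

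The 8 genes varied together across arrays. As deviations from the group means over 12 arrays, all 28 pairs had a positive Pearson correlation, from 0.25 to 0.90 with a median of 0.60. Syn2 and Syt1 (0.90), Syn1 and Snap25 (0.89), Syn1 and Syt1 (0.87) and Syn1 and Syn2 (0.87) were the closest pairs, and Syp was closest to Stx1a (0.85). The loosest pairs held Vamp1, with 0.25 for Snap25 and 0.30 for Stx1a. Pairs share the same arrays and their normalization, so these coefficients are descriptions. Pairs of other probes were not computed, so whether such correlations are particular to these genes was not tested. The lowest pair was at -0.28 without control 4, while the median over pairs was then 0.68. Taken as the mean deviation of the 8 genes from their averages over all arrays, control 4 stood lowest at -0.24, followed by control 6 at -0.14 and poly(I:C) 6 at -0.13, and control 1 (0.15) and poly(I:C) 4 (0.14) stood highest.

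**Figure D2:**
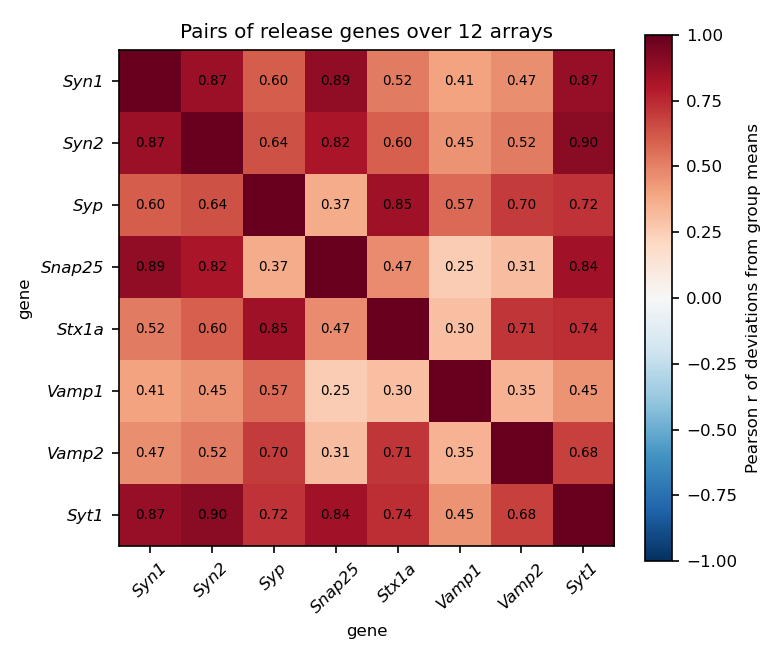
Pearson correlation (colour and number) between each pair of the 8 genes, computed over 12 arrays from deviations from the group means. All 28 pairs are above 0, and the row of Vamp1 holds the palest cells.

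The within-group spread differed widely between the genes. Stx1a and Vamp1 had larger residual SDs than 98.9% and 98.2% of all probes (0.32 and 0.28 on the log2 scale), whereas Snap25 and Vamp2 sat near the middle, at 45.7% and 48.9% (0.084 and 0.086). Slc17a7 itself had a residual SD of 1.16, wider than that of 99.99% of probes.

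Arrays with more Slc17a7 had more of most of these transcripts. In a limma fit over 21217 probes with the group and the Slc17a7 level as terms, the slope was positive for all 8 genes, against 53.5% of all probes. Stx1a was the 1 gene of the 8 that passed the adjusted threshold, which 1.79% of probes passed, 1.02% with a positive and 0.773% with a negative slope. At an unadjusted p under 0.05, 6 of 8 had a positive and 0 a negative slope, beside 7.08% and 6.65% of all probes. The median slope was 0.06 log2 units per log2 unit of Slc17a7, against 0.0024 over all probes. Without control 4 and control 6, 6 of 8 still had a positive slope at an unadjusted p under 0.05, beside 1325 of all probes.

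Stx1a rose by 0.25 log2 units per log2 unit of Slc17a7 (95% interval 0.17 to 0.33, limma adjusted p = 0.0064). Its Pearson correlation with Slc17a7 over the 12 arrays was 0.83 (permutation p = 4e-05) and Spearman's rho was 0.92 (permutation p = 4e-05), both two-sided and unadjusted, as are all permutation p-values here. Within the control arrays the correlation was 0.87 (exact permutation p = 0.0139) and within the poly(I:C) arrays 0.96 (exact permutation p = 0.0056). Control 1, with the second highest Slc17a7 of all arrays (9.41), had the highest Stx1a. Without control 1 the slope was 0.18 and the call was lost (limma adjusted p = 0.103). The call held in the other 11 fits that left out 1 array, and without control 4 and control 6 the slope was 0.33 (limma adjusted p = 0.0025).

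Vamp2 and Syt1 came next, with slopes of 0.061 (95% interval 0.025 to 0.098, limma adjusted p = 0.0979) and 0.062 (0.022 to 0.10, adjusted p = 0.120). Over 12 arrays Vamp2 had r = 0.88 (permutation p = 0.0008) and rho = 0.76 (permutation p = 0.0066). Within groups its correlation was 0.92 in controls (exact permutation p = 0.0250) and 0.52 in the poly(I:C) group (exact permutation p = 0.356). Syt1 had r = 0.83 (permutation p = 0.0022) and rho = 0.80 (permutation p = 0.0030), with 0.78 in controls (exact permutation p = 0.0556) and 0.77 in the poly(I:C) group (exact permutation p = 0.128).

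Syp and the synapsins had slopes of the same size as Vamp2 and lower precision. The slope was 0.073 for Syp (limma adjusted p = 0.219), 0.072 for Syn1 (adjusted p = 0.332) and 0.056 for Syn2 (adjusted p = 0.255). Over 12 arrays Syp had r = 0.77 (permutation p = 0.0045) and rho = 0.83 (permutation p = 0.0017). Syn1 had r = 0.73 (permutation p = 0.0125) and rho = 0.82 (permutation p = 0.0017), and Syn2 r = 0.78 (permutation p = 0.0044) and rho = 0.85 (permutation p = 0.0008). For Syn1 the coefficient was 0.48 in controls (exact permutation p = 0.317), where control 4 was the lowest Syn1 array and control 6 the lowest Slc17a7 array, and 0.85 in the poly(I:C) group (exact permutation p = 0.0278). For Syn2 it was 0.65 in controls (exact permutation p = 0.133) and 0.69 in the poly(I:C) group (exact permutation p = 0.133), and for Syp 0.71 (exact permutation p = 0.125) and 0.67 (exact permutation p = 0.208).

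Snap25 and Vamp1 followed Slc17a7 least. Snap25 had a slope of 0.041 (95% interval -0.0037 to 0.085, limma adjusted p = 0.418), r = 0.64 (permutation p = 0.0450) and rho = 0.78 (permutation p = 0.0044), with 0.56 in controls (exact permutation p = 0.217) and 0.60 in the poly(I:C) group (exact permutation p = 0.200). Vamp1 had a slope of 0.041 with a wide interval (-0.10 to 0.18, limma adjusted p = 0.864), r = 0.13 (permutation p = 0.660) and rho = 0.19 (permutation p = 0.555). Within groups Vamp1 had r = 0.32 in controls (exact permutation p = 0.567) and 0.0051 in the poly(I:C) group (exact permutation p = 0.839).

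In all, 8 genes were set against Slc17a7 in 4 sets of arrays. Over 12 arrays, 7 of the 8 had an unadjusted permutation p under 0.05 for r. The pooled coefficients include the group difference of Slc17a7 itself. These permutation tests were run for the 8 genes only, so no share of all probes stands beside their counts. Within controls 2 of 8 had one (Stx1a and Vamp2), within poly(I:C) arrays 2 of 8 (Stx1a and Syn1), and all within-group values of r were above 0. By ranks 1 of 8 had a permutation p under 0.05 within controls (Vamp2) and 3 of 8 within poly(I:C) arrays (Stx1a, Syn1 and Syp), and Stx1a in controls had rho = 0.83 (exact permutation p = 0.0583). Vamp1 in poly(I:C) arrays had rho = -0.37 (exact permutation p = 0.497), and Syp there had rho = 0.94 (exact permutation p = 0.0167). Without control 6 and control 2, the 2 arrays farthest from the median of Slc17a7, the same count was 7 of 8 and r ran from 0.27 (Vamp1, permutation p = 0.437) to 0.86 (Syt1, permutation p = 0.0026). With no group term in the limma fit 6 of 8 passed over all probes, where 2.28% of probes passed with a positive and 2.34% with a negative slope.

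**Figure D3:**
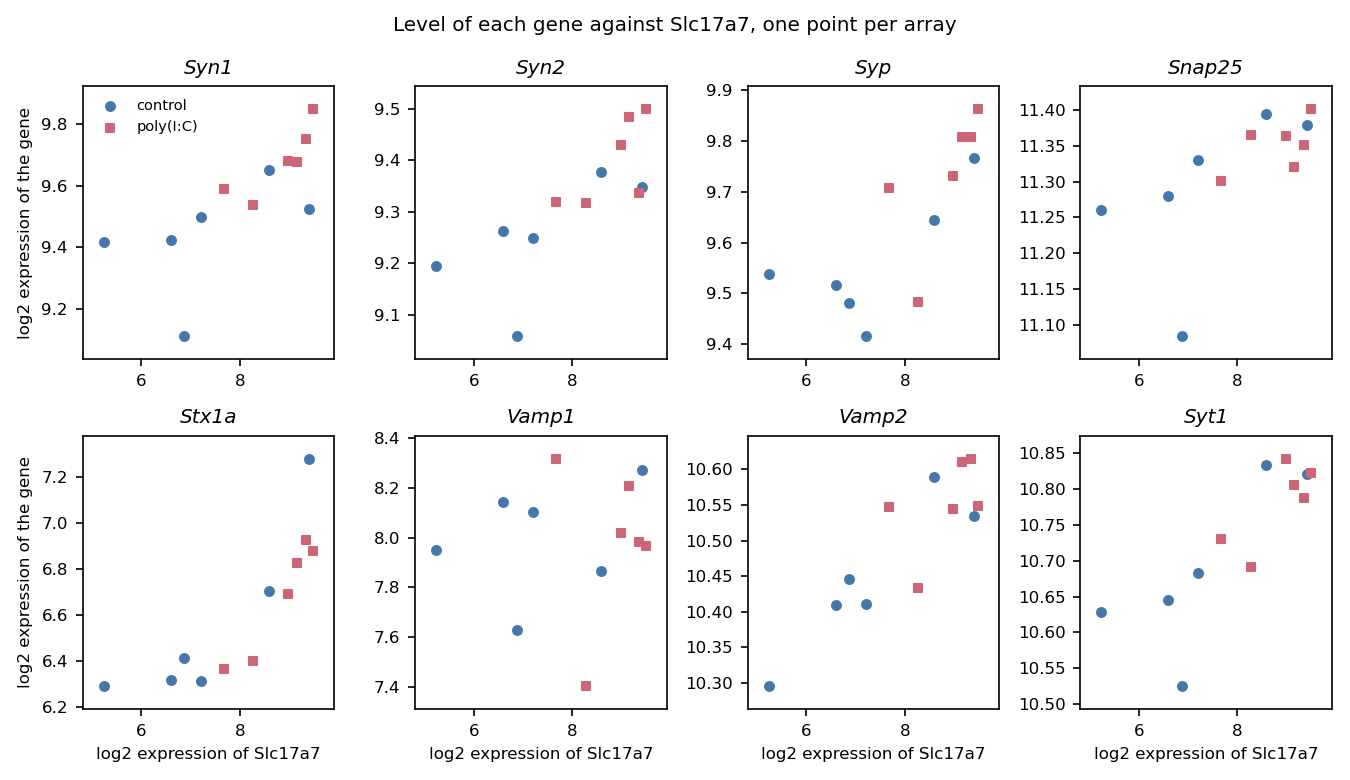
Log2 expression of each of the 8 genes (vertical axes) against log2 expression of Slc17a7 (horizontal axes), with 1 point per array, control arrays as blue circles and poly(I:C) arrays as red squares. The points climb from left to right in all panels except that of Vamp1, and the control at a Slc17a7 level of 6.87, control 4, lies low for Syn1, Syn2, Snap25 and Syt1.

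With both groups set at 1 Slc17a7 level the group difference was smaller in size for 6 of the 8 genes and larger for Stx1a and Vamp1. Slc17a7 had a group difference of 1.51 itself (7.32 ± 1.49 in controls and 8.82 ± 0.70 in the poly(I:C) group, SD, n = 6 each), so both terms share part of the same variation. The shift of each gene follows from its slope on Slc17a7 and this difference, so the shifts are no result apart from the slopes. With Slc17a7 in the model the difference of Syn1 went from 0.24 to 0.13 (95% interval -0.05 to 0.31, limma unadjusted p = 0.131), that of Syn2 from 0.15 to 0.06 (-0.06 to 0.19) and that of Syp from 0.17 to 0.06 (-0.08 to 0.21). Snap25 (0.0010), Vamp2 (0.0098) and Syt1 (-0.0036) lay close to 0, and Vamp1 stood at -0.07. The difference of Stx1a turned from 0.13 to -0.24 (95% interval -0.45 to -0.03, limma unadjusted p = 0.0263, adjusted p = 0.427), in the direction in which 5.02% of all probes had an unadjusted p under 0.05. The median difference over the 8 genes was 0.0054, and 5 of 8 were above 0, near the 48.9% of all probes. The adjusted threshold was passed by 0 of 8 and 0 of all probes. With the mean of the cortical marker list in place of Slc17a7 the median was 0.01 and Stx1a stood at -0.28.

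**Figure D4:**
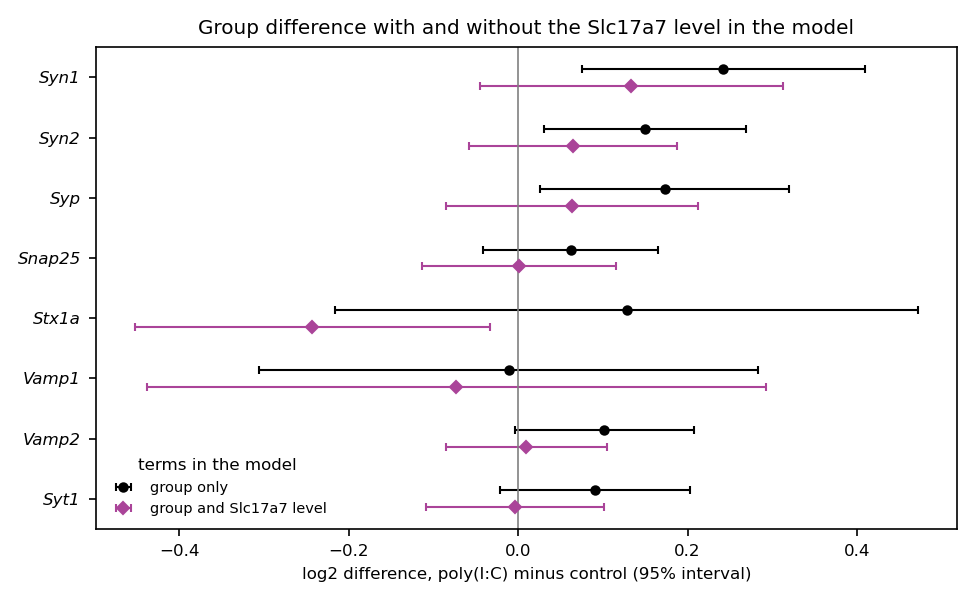
Log2 difference, poly(I:C) minus control (horizontal axis), of each gene with its 95% limma interval, from a model with the group alone (black circles) and from a model with the group and the Slc17a7 level (purple diamonds). All 8 estimates lie further left with Slc17a7 in the model, which follows from their positive slopes on Slc17a7. That of Stx1a crosses from 0.13 to -0.24.

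Markers of other cell types were measured beside these results. The 11 measured cortical glutamatergic genes include Slc17a7. Their list mean ran from 5.88 to 6.88 in controls and from 6.31 to 6.99 in the poly(I:C) group. In the poly(I:C) group 9 of 11 were higher, beside 50.9% of all probes. At an unadjusted p under 0.05, 6 of 11 were higher, Slc17a7 among them, beside 7.83% of all probes, and 0 passed after adjustment. For the slope on Slc17a7, 2 of the 10 tested passed as positive (Neurod2 and Tbr1), beside 1.02% of all probes. The 7 choroid plexus genes had list means from 4.75 to 7.55 in controls and from 4.56 to 4.86 in the poly(I:C) group. In the poly(I:C) group all 7 were lower, 2 of 7 at an unadjusted p under 0.05, beside 6.57% of all probes, and 0 passed after adjustment. Between groups Ttr was at -2.82 (limma unadjusted p = 0.0028, adjusted p = 0.151), the lowest difference of all probes, and Slc17a7 at 1.51 was the highest. All 7 had a negative slope on Slc17a7, 3 past the adjusted threshold (Ttr, Otx2 and Clic6), beside 0.773% of all probes. The slope of Ttr was -1.08 (limma adjusted p = 0.0310). Oligodendrocyte genes, with list means from 8.02 to 8.63 and from 7.89 to 8.06, were lower for 7 of 7, 6 of 7 with an unadjusted p under 0.05 and 3 of 7 with groups that did not overlap, beside 6.57% and 1.13% of all probes. Mobp, a myelin gene, passed over all probes (-0.51, limma adjusted p = 0.0411). Of these 7 genes 6 had a negative slope on Slc17a7 at an unadjusted p under 0.05, beside 6.65% of all probes, with Mag (-0.15) and Opalin (-0.17) past the adjusted threshold. Of 5 thalamic and septal genes, with list means from 6.32 to 7.64 in control arrays and from 6.11 to 7.02 in poly(I:C) arrays, 4 had such a negative slope and Tcf7l2 was called (-0.21, limma adjusted p = 0.0204). Tcf7l2 was at -0.42 between groups (limma adjusted p = 0.218), and Slc17a6, the thalamic glutamate transporter gene, had a slope of -0.35 (limma adjusted p = 0.177). Between groups Slc17a6 was at -0.60 (limma unadjusted p = 0.0766, adjusted p = 0.404). Slc17a6 is also counted among the further release genes below. Lhx2 of the same list was higher by 0.18 between groups (limma unadjusted p = 0.0093, adjusted p = 0.204), with a slope of 0.04. Zic1 and Trpc4 were at -0.05 and -0.12 between groups. Astrocyte, microglia, interneuron and medium spiny neuron lists had 0 genes with an unadjusted p under 0.05 between groups. For the slope on Slc17a7 at that threshold, 3 of 6 interneuron genes were positive and 1 negative, beside 7.08% and 6.65% of all probes. Of 7 medium spiny neuron genes 1 was positive at that threshold, and all 7 slopes were above 0, beside 53.5% of all probes. Astrocyte and microglia lists had 0 such slopes. General neuronal genes outside the vesicle, such as Rbfox3 and Eno2, were higher for 8 of 8, beside 50.9% of all probes, with a median difference of 0.09. At an unadjusted p under 0.05, 1 of 8 was higher (Eno2 at 0.19), beside 7.83% of all probes. At the same threshold 4 of 8 had a positive slope on Slc17a7, beside 7.08% of all probes. The part of cortical, thalamic, oligodendrocyte or choroid plexus RNA in the differences of the vesicle genes was not tested. The models above with Slc17a7 or the cortical mean do not measure that part.

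The wider release machinery gave a like picture, with no call for the group and several for Slc17a7. Of 72 further genes of docking, priming, vesicle membrane, active zone and recycling, 67 were measured. None of the 67 passed the adjusted threshold between groups, 16 were higher and 3 lower at an unadjusted p under 0.05, beside 7.83% and 6.57% of all probes, and their median difference was 0.08, against 0.0016 over all probes. Without control 4 and control 6 these counts were 4 higher and 2 lower, beside 920 and 848 of the 21218 probes. With Slc17a7 in the model they were 1 and 2, beside 1147 and 1066 of all probes. For the slope on Slc17a7, 7 of 67 passed as positive and 0 as negative, 53 of 67 were above 0 and the median was 0.04, where 1.02% and 0.773% of all probes passed and 53.5% were above 0. The number called was 5 without control 4 and control 6, beside 139 of all probes in either direction. It was 2 without control 1 and 4 when control 2 or 3, or poly(I:C) 1, 2, 3 or 5, was the array left out.

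Active zone scaffold genes, which hold vesicles at the release site, were 5 of those 7. They were Bsn (bassoon, slope 0.15, limma adjusted p = 0.0041), Rims1 (0.12, adjusted p = 0.0099), Rimbp2 (0.10, adjusted p = 0.0168), Ppfia3 (0.09, adjusted p = 0.0439) and Erc2 (0.11, adjusted p = 0.0476), out of 10 measured. Of the 10 slopes 8 were above 0, beside 53.5% of all probes. Rims3 went the other way at -0.14 (limma unadjusted p = 0.0068, adjusted p = 0.139), as did Rims2 at -0.05. Rims1, the scaffold that links vesicles to calcium channels, read 8.22, 7.85, 8.05, 7.81, 7.89 and 7.79 in controls and 8.02, 8.05, 8.11, 8.20, 7.81 and 7.85 in the poly(I:C) group. As for Stx1a, control 1 was the highest array and the groups overlapped almost fully. The number of active zone calls was 1 without control 1, 3 without both control 4 and control 6, and 1 of 2 release genes called without the 2 arrays farthest from the median of Slc17a7. With the mean of the other cortical markers in place of Slc17a7, 2 of 10 release genes called were active zone genes. Between groups 9 of 10 active zone genes were higher, beside 50.9% of all probes, with a median difference of 0.14. At an unadjusted p under 0.05, 4 of 10 were higher, beside 7.83% of all probes. Among them were Pclo (piccolo) at 0.20 and Rimbp2 and Ppfia2 at 0.18 and 0.17. Without control 4 Pclo was at 0.13.

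Sv2b, a vesicle glycoprotein gene strong in cortex, had the steepest slope of the release genes called, just above that of Stx1a. It read 9.85, 9.11, 9.56, 9.08, 9.17 and 8.94 in controls and 9.58, 9.71, 9.83, 9.99, 9.16 and 9.52 in the poly(I:C) group, so the groups overlapped, with control 1 among the highest arrays and poly(I:C) 5 among the lower ones. Its slope was 0.25 (limma adjusted p = 0.0020) and its group difference 0.35 (limma unadjusted p = 0.0449, adjusted p = 0.336). Its paralogue Sv2a had a slope of 0.02 and a group difference of 0.12. Syngr3, a synaptogyrin gene, had the smallest unadjusted p of these 67 genes (0.0065, limma adjusted p = 0.184), with a difference of 0.21 and a slope of 0.0034, while Syngr1 had a difference of -0.0031 and a slope of 0.09 (limma adjusted p = 0.0583). Sypl, a synaptophysin-like gene expressed in many tissues, was at -0.13 between groups.

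Among SNARE assembly and priming genes, 12 of the 15 measured were higher, beside 50.9% of all probes. The syntaxin-binding tomosyn gene Stxbp5 was at 0.17 (limma adjusted p = 0.195), the complexin gene Cplx1 at 0.24 (adjusted p = 0.234) and the priming gene Unc13c at -0.27 (adjusted p = 0.230). Cplx2 was the 1 gene of this list called for the slope (0.10, limma adjusted p = 0.0335), and Cplx3 stood at 0.15 (adjusted p = 0.0613). Of 12 other synaptotagmins 7 were higher, a share near the 50.9% of all probes. Syt6 was at 0.23, Syt12 at 0.20 and Syt7 at 0.14, while Syt10 was at -0.18 and Syt9 at -0.08. Without control 6 Syt9 was at -0.026. None of the 12 was called for the slope, with Syt17 at 0.32 (limma adjusted p = 0.127) and Syt9 at -0.08 (slope). Of 12 recycling genes 9 were higher, beside the same 50.9%, and 0 were called for the slope. Between groups Sh3gl2 (endophilin) was at 0.28, Synj1 (synaptojanin) at 0.18 and Snap91 at 0.11. Without control 4 Sh3gl2 was at 0.16. Dnm1, the dynamin gene of vesicle retrieval, had a slope of 0.057 (limma adjusted p = 0.118) and Snap91 one of 0.055.

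**Figure D5:**
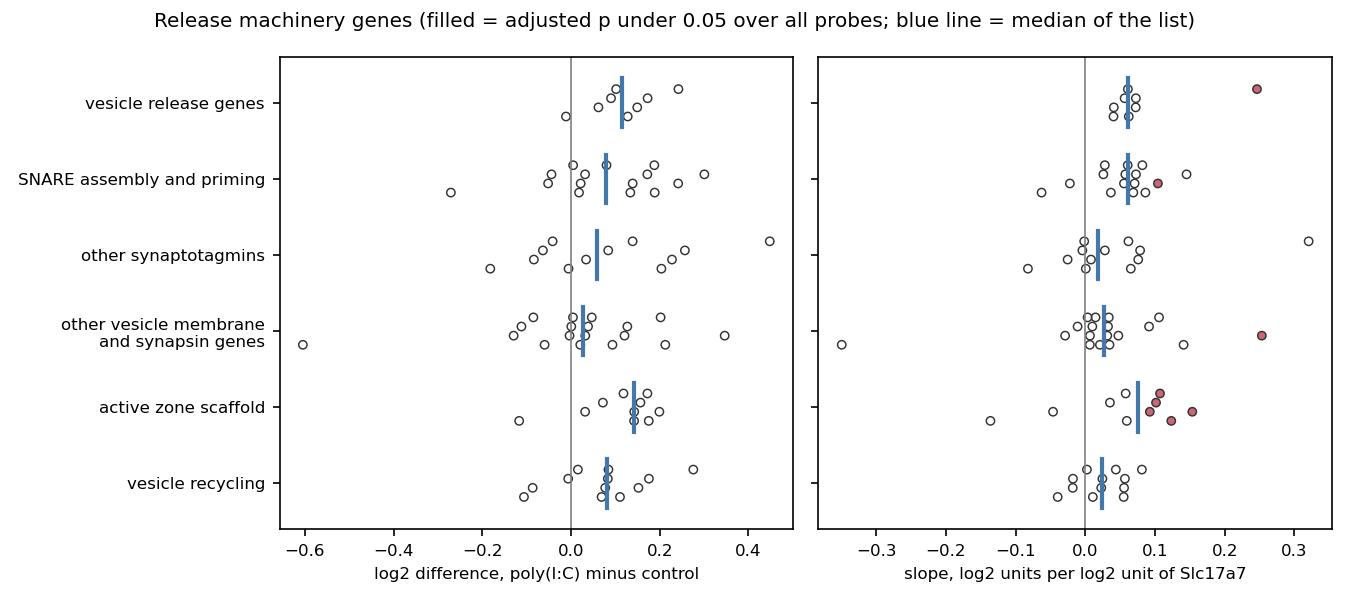
Each circle is 1 gene of the release machinery, placed by its log2 difference, poly(I:C) minus control (left), and by its slope in log2 units per log2 unit of Slc17a7 (right), with 1 row per list, filled where the adjusted p over all probes was under 0.05 and a blue line at the median of the list. No circle is filled on the left, and on the right the filled circles are Stx1a in the top row, Cplx2, Sv2b and 5 active zone genes.

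The genes whose profile over the 12 arrays was most like the mean standardised profile of the 8 were Dnm1 (r = 0.98), Tspan5 (0.96), Serpini1 (0.96), Lancl2 (0.96) and Mapk8 (0.95), among 10601 probes at or above the median level. Serpini1, which encodes neuroserpin, had a slope on Slc17a7 of 0.28 (limma adjusted p = 0.0094) and Tspan5 one of 0.13 (limma adjusted p = 0.0204). Dnm1, Lancl2 (0.095, limma adjusted p = 0.207) and Mapk8 (0.11, limma adjusted p = 0.0930) did not pass for the slope. The lowest likeness was that of Prag1 (-0.93) and the ribosomal protein gene Rps6 (-0.90), and neither passed for the slope (limma adjusted p = 0.0659 and 0.582). Slc17a7 itself reached 0.85, with 1.47% of those probes above it, and Ttr reached -0.88. These coefficients were picked as extremes over many probes and are descriptions. The genes were matched to a profile that itself followed Slc17a7, so their slopes are no separate test.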

How the data were processed

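The authors deposited 1 table of log2 values, 35556 rows by 12 arrays. Per the submitters' processing notes, these log2 values were made with RMA and Partek 6.6; the sources used here give no RMA settings and no build. RMA aligns array distributions, so a change shared by most transcripts is not visible. Per the labels, 250 ng RNA was used per array. Litter, sex and batch are not given, so p-values treat offspring as independent. Rows with 1 gene symbol in the platform annotation (21218; 1881 had several, 12457 none) were tested with limma 3.58.1 in R 4.3.3 (lmFit, eBayes, two-sided, Benjamini-Hochberg over all rows, threshold 0.05), once with the group and once with the group and Slc17a7 (its own row left out). For several rows per gene the highest mean was used. Permutation tests used scipy 1.17.1, with 100000 resamples for 10 or more arrays and exact enumeration otherwise. Both fits were checked on simulated data. Number of arrays limits precision.

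The 8 genes, the lists and the rules were chosen with earlier results of these data known. Named are the 8 genes, Slc17a7, per release list the 3 smallest unadjusted p between groups and the 2 smallest for the slope, and the 5 most and 2 least similar profiles at or above the median level. Ppfia3, Erc2, Rims2, Rims3, Syt10, Tbr1, Neurod2, Mobp, Mag, Opalin, Tcf7l2, Slc17a6, Lhx2, Zic1, Trpc4, Otx2, Clic6, Ttr, Rbfox3 and Eno2 were named after their values were seen. Alternatives covered eBayes settings, array weights, scaling, a filter on dim probes, the replicate number as a block, covariates and left-out arrays.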

Additional observations from a re-analysis of the deposited data

Results flagged for a closer look

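Arrays far from the rest of their group were looked for in 80 groups of 6 and found in 6; chance alone gives about 1 in 20 groups. Of the 8 vesicle release genes none had such an array. In poly(I:C) 6, Ttr stood at 6.80 with the next array at 5.51, and Cplx1 at 9.39 with the next at 9.76. In control 1, Syt7 stood at 7.98 with the next at 7.68. In control 4, Pclo stood at 8.33 with the next at 8.68 and Ppfia2 at 7.46 with the next at 7.70. Syt9 in poly(I:C) 1 was low at 6.15 with the next at 6.26.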

How the results depend on the processing

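None of the 8 genes passed the adjusted threshold between groups in any of 22 alternatives, and Syn1, Syn2, Syp, Snap25 and Vamp2 kept a positive difference in all of them. For all probes the count of 13 was 1 with an intensity trend and robust prior, 140 with array weights, 38 with quantile normalization again, 33 with 75th percentile centring, 20 for probes at or above the median level, 0 to 84 with 1 array left out, and 0 without control 4 and control 6, with the replicate block and with Slc17a7 or the cortical mean as covariate; the cause was not tested. At an unadjusted p under 0.05, 75th percentile centring gave 1069 higher and 1961 lower probes (1661 and 1395 as deposited). With Slc17a7 and the cortical mean as covariates the median over the 8 genes was 0.0054 and 0.0103, Stx1a was at -0.24 and -0.28 and Syt1 at -0.0036 and -0.0070. Vamp1 reversed with array weights (0.027) and without control 1 (0.044), 2 (0.018) or 5 (0.011) or poly(I:C) 6 (0.105), from -0.084 to 0.105 with 1 array left out.

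For the slope, the 380 probes became 980 with no group term, 251 at or above the median level, 224 with the other cortical markers, 95 without the 2 arrays farthest from the median of Slc17a7, 139 without control 4 and control 6 (chosen after seeing the data), 45 to 664 with 1 array left out and 0 with the replicate block. Of the 8 genes 6 were called with no group term, 2 with quantile normalization again, 2 with the other cortical markers, 0 with the replicate block and 0 to 1 with 1 array left out. Vamp1 reversed without control 1 (-0.017; -0.017 to 0.085 with 1 array left out) and with the block (-0.022). The replicate numbers did not pair the arrays: the deviations of same-numbered arrays correlated from -0.20 to 0.27, with 1 of 6 over 0.1 and 1 of 6 controls closest to its own number. No gene of the 8 had a second row to try. Without control 4 and control 6 (chosen after seeing the data) the differences of Cplx1 (0.15), Ppfia2 (0.11), Stxbp5 (0.11), Sv2b (0.21) and Snap91 (0.072) were over 1.5 times smaller. So were those of Pclo (0.12), Sh3gl2 (0.17) and Syt9 (-0.011), and those of Bsn, Cplx2, Dnm1, Rims1 and Syt17.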
